A study of Mus musculus with 60 samples.

Results

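The genes described here separated 2 strains of mice in 5 organs at once. In each of parotid, submandibular gland, sublingual gland, pancreas and liver, all 6 libraries of CD1 lay above all 6 of C57, or all 6 lay below, always in the same direction. Levels were counts-per-million values (CPM), taken over the library total, and the mean of the higher strain had to reach 1 CPM in every tissue. Symbols that begin with H2-, Trim, C1, C4, Cyp, Gst, Sult, Ugt, Mup or Serpina were left out. Of 41079 genes in the table, 11534 reached that level in every tissue and carried none of those symbols. The rule kept 35 members, 23 higher in CD1 (0.199% of the 11534) and 12 higher in C57 (0.104%). In a single tissue, libraries of the strains did not overlap for 1.99% of genes in parotid, 2.43% in submandibular gland, 12.6% in sublingual gland, 3.12% in pancreas and 9.79% in liver, among genes at that level there. The strain difference chose the members, so their strain ratios are given as a description with no test.

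The study sequenced poly(A)-selected RNA from the 3 major salivary glands, pancreas and liver of 12 mice. CD1 is an outbred stock, in which animals differ in genotype, and C57 names an inbred strain whose animals are close to identical; the labels do not name the substrain. The 4 sets of animals were CD1 males, CD1 females, C57 males and C57 females, with 3 animals each and no treatment, genotype or age given. Each animal gave 1 library per tissue, 60 in all, and an animal is called by its set and its replicate number (CD1 female 2). Numbers do not link animals of different sets.

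All organs of an animal share its DNA sequence, and strains of mice differ in theirs. A processed pseudogene is a copy of a spliced messenger RNA that was written back into the genome, usually without introns, and strains differ in which copies they carry. Reads from an expressed copy, or from an allele that differs from the reference, are assigned to a gene by how well they match the reference genome, which was assembled from a C57BL/6 animal. Genes for ribosomal proteins, which build the large (Rpl) and small (Rps) subunits of the ribosome, are among the richest sources of such copies.

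Library totals lay between 29871176 and 66586067 counts, with a median of 40498954. In sums of marker genes, the parotid, sublingual and liver lists were higher in every library of their own tissue than in any other library. The pancreas and submandibular lists were so only without 3 libraries that stand apart. Pancreas CD1 female 2 held 55.4 CPM of Cpa1, a pancreatic enzyme precursor, and pancreas CD1 female 3 held 16206, against 34378 to 40616 in the other 10. Sublingual C57 male 2 held 17319 CPM of Egf, a product of the submandibular gland, against 293 to 648 in the other 11. In pancreas, the 6 lymphoid markers summed to 6.09 to 1549 CPM in CD1 and to 3.58 to 6.26 in C57. Scaling by library total placed the median gene of pancreas 1.09 higher in CD1 on the log2 scale, and 0.16 higher with TMM (trimmed mean of M-values) scaling. Pancreas ratios of the members below are read against that shift. The rule applied to TMM-scaled values kept 49 genes, 20 higher in CD1 and 29 higher in C57, and 32 of the 35 members were among them; Ciapin1, Eif3j2 and Hddc3 were not. Without the 3 libraries that stand apart the rule kept 37 genes, all 35 members included. Leaving libraries out cannot undo a complete separation, so a member could be lost there only by falling under 1 CPM.

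The members lay on 17 chromosomes. The ratio of strain means in the tissue where it was smallest ran from 2.03 to 94.9 over the 23 CD1-higher members, with a median of 8.42. Over the 12 C57-higher members it ran from 1.82 to 16.2, with a median of 6.42. For 16 of the 35 members the 5 ratios lay within 1 log2 unit of each other. The narrowest span was that of Rpl34, 0.21 log2 units, and the widest that of Gm51522, 4.85. The members nearest the threshold were Rab6b, whose higher strain mean was 1.29 CPM in its lowest tissue, 4930481A15Rik (1.56) and Gm53464 (1.62). Just outside were C920006O11Rik (0.876), Gm53928 (0.732) and Gm53706 (0.247).

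**Figure D1:**
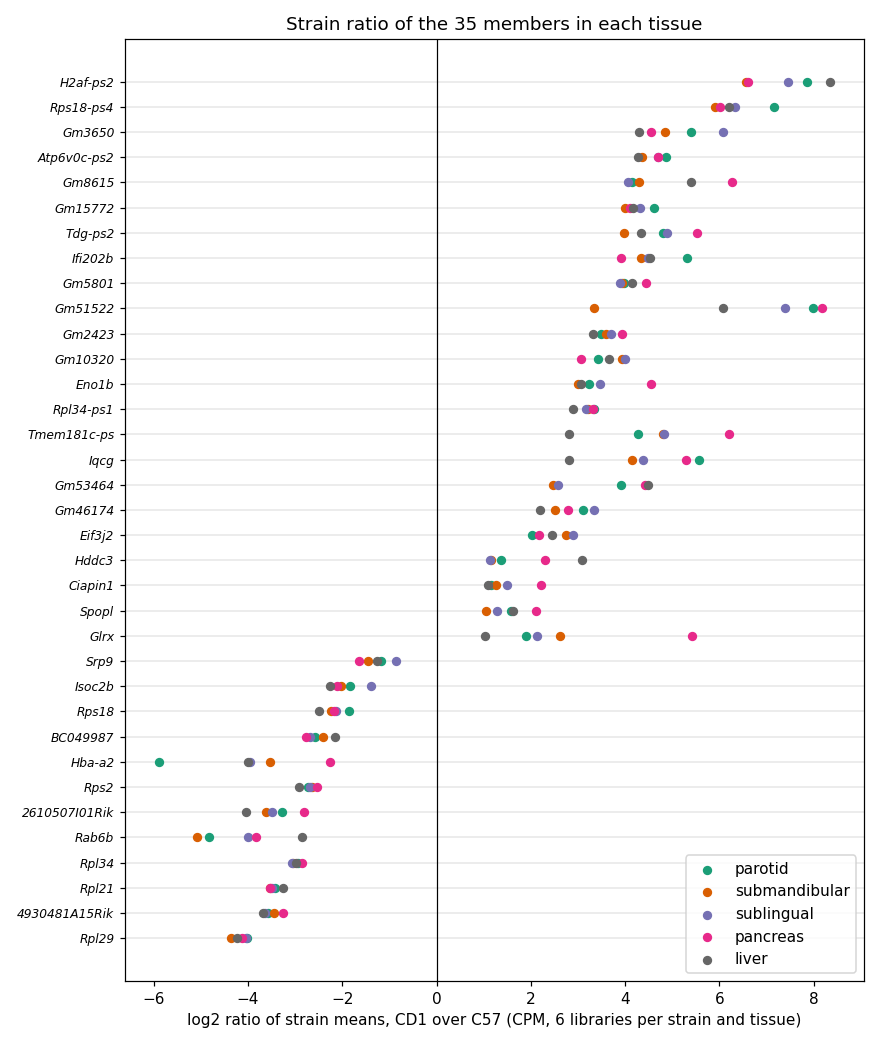
Log2 ratio of the strain means in each tissue, CD1 over C57, for the 35 members (rows), with 1 point per tissue and 6 libraries per strain behind each mean; positive values are higher in CD1. H2af-ps2 in liver (326-fold) lies farthest to the right and Hba-a2 in parotid (59.6-fold higher in C57) farthest to the left, and the points of Gm51522 and Glrx are spread widely; the pancreas point of Gm3650 is a lower bound.

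By kind of gene, 9 of the 35 were pseudogenes in the RefSeq table (25.7%), against 68 of the 11534 genes (0.59%), and all 9 were higher in CD1. All 6 members with a pseudogene symbol (-ps) were likewise higher in CD1. The 5 ribosomal protein genes, 14.3% of the members against 0.78% of the 11534, were Rpl21, Rpl29, Rpl34, Rps2 and Rps18, and all 5 were higher in C57. Near-identical copies (at least 95% identity over at least 50% of the coding sequence or transcript) were sought among annotated GENCODE transcripts of other loci. Copies not annotated there, such as any carried only by CD1, could not be found. A copy was found for 21 of the 32 members that could be matched to GENCODE transcripts (65.6%), against 939 of 11185 genes at the same level (8.4%). The share was 70.0% of the CD1-higher members matched (14 of 20) and 58.3% of the C57-higher ones (7 of 12). Gm46174, Gm51522 and Gm53464 were not matched. No member was a zinc finger gene (Zfp) or a solute carrier (Slc), which made up 2.52% and 1.89% of the 11534.

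How close these copies are to their sources is shown by the sequences below, which are 60-base windows from GENCODE M21 transcripts (GRCm38, C57BL/6J). They are given to show how few bases tell a member from its source; within each window the pair differs only at the capital letters. Positions count from the first base of the source's start codon, and the source's base is written first. Over the 351 coding bases of Rpl34, Rpl34-ps1 differs at T132C and C318G. Over the 435 of Rpl26, Gm15772 differs at C177T and T288C. Over the 465 of Atp6v0c, Atp6v0c-ps2 differs at T111C alone. Over the 456 of Rps18, the reverse complement of the Rps18-ps4 transcript differs at T186C, A337C, G371A and G431A. That transcript is named Gm26619 in GENCODE, and it shares 541 exon bases with Gm10260 on the opposite strand. Which strand the RNA of this copy came from was not tested. Over the 426 of Hba-a1, Hba-a2 differs at C381T alone.
Rpl34 bases 102 to 161: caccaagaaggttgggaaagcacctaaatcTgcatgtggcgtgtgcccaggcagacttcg
Rpl34-ps1: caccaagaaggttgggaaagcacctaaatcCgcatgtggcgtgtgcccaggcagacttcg
Rpl26 bases 147 to 206: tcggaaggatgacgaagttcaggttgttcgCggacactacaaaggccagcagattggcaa
Gm15772: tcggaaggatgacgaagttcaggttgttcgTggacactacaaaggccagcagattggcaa
Atp6v0c bases 81 to 140: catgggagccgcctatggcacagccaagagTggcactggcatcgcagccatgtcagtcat
Atp6v0c-ps2: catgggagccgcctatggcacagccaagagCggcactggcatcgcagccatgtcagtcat
Rps18 bases 324 to 383: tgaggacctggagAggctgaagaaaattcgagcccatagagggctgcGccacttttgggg
Rps18-ps4, reverse complement: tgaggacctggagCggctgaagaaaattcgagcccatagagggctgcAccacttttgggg
Hba-a1 bases 351 to 410: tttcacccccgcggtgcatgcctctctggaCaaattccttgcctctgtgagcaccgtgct
Hba-a2: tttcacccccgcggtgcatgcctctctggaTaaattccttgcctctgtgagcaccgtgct

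Because the counting of reads that match 2 places is not given in the sources used here, the level of a member with such a copy is uncertain on its own, and the sum over the member and its copies is given beside it. Of the 20 members with a near-identical copy that had a row of counts, the summed level overlapped between strains in all 5 tissues for 14. The sums of 3 (Rpl21, Rpl29 and Rps2) were separated in all 5, and those of Eno1b, H2af-ps2 and Tdg-ps2 in some. Rpl34 and Rpl34-ps1 share a sum, as do Rps18 and Rps18-ps4, so these sums are counted for both members. Overlap is also the usual state: over all single genes, strains did not overlap for 1.99% in parotid and up to 12.6% in sublingual gland.

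Rps18, a small-subunit protein gene on chromosome 17 (listed exon chr17:34170972-34171092), and Rps18-ps4 on chromosome 13 (chr13:97887620-97887660) are both members and point in opposite directions. In liver, Rps18 held 36.3 to 48.3 CPM in CD1 (median 38.5) and 157 to 276 in C57 (median 235). Rps18-ps4 held 108 to 190 CPM there in CD1 (median 133) and 1.15 to 3.71 in C57 (median 1.63). The groups of neither gene overlapped, and the sum of the pair did: in liver it was 180 ± 33.3 CPM in CD1 and 232 ± 44.0 in C57 (mean ± SD, n = 6 each). Over the 5 tissues the ratio of the sums, CD1 over C57, lay between 0.743 and 1.13. Rps18-ps4 took 66.3 to 79.7% of the counts of the pair in the 30 CD1 libraries and 0.445 to 1.91% in the 30 C57 libraries. The exons of Rps18 also overlap Vps52 on the opposite strand by 156 bases. Those of Rps18-ps4 overlap Gm10260 on the opposite strand by 541 bases, and Gm10260 could not be matched to a row of counts.

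Rpl34, a large-subunit protein gene on chromosome 3 (chr3:130520476-130520608), and Rpl34-ps1 on chromosome 6 (chr6:71101573-71101985) showed the same exchange. In parotid, Rpl34 held 9.61 to 32.1 CPM in CD1 (median 13.8) against 82.4 to 172 in C57 (median 117). Rpl34-ps1 held 90.7 to 278 CPM in CD1 (median 106) against 8.27 to 15.5 in C57 (median 13.7). The copy's share of the pair was 58.3 to 94.5% over the CD1 libraries and 8.05 to 12.4% over those of C57, and the sums stayed within a ratio of 0.865 to 1.13.

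The source genes of the next 4 CD1-higher copies are no members. Each had a lower mean in CD1 in at least 4 of the 5 tissues. So did Eno1, Sec61b, Spg11 and Tmem181a, the nearest counted copies of Eno1b, Gm10320, Gm3650 and Tmem181c-ps, which are described below. For 3 of the next 4 the sum overlapped between strains in every tissue, and for Tdg-ps2 it did not. Gm15772 is a copy of Rpl26, another large-subunit gene. In sublingual gland Gm15772 held 239 ± 81.0 CPM in CD1 and 12.0 ± 1.61 in C57 (n = 6 each), and Rpl26 had means of 114 and 287; the sums were 353 ± 67.3 and 299 ± 39.0. The ratio of sums over the tissues was 1.02 to 1.27, and that of Rpl26 alone 0.314 to 0.419. Atp6v0c-ps2 is a copy of the gene for the proteolipid subunit of the proton pump of lysosomes. In liver the copy and Atp6v0c had means of 46.9 and 42.8 CPM in CD1 and of 2.44 and 90.6 in C57. The copy's share was 39.9 to 55.6% in every CD1 library and 1.48 to 5.24% in every C57 library. Its sum ratio was 0.91 to 1.14 outside pancreas and 2.0 in pancreas, where 1 of the 6 CD1 libraries, female 2, held 78.6 CPM of the copy against 12.3 to 36.8 in the other 5.

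Gm8615, a copy of Gnpda1 (a deaminase of amino sugar breakdown), took 57.3 to 87.0% of its pair in CD1 and 1.10 to 8.64% in C57. The ratio of its sums was 1.14 to 1.61 outside pancreas and 4.81 in pancreas, where Gnpda1 alone was at 1.25. Tdg-ps2, a copy of the DNA repair glycosylase gene Tdg, took 70.1 to 90.3% and 2.76 to 11.8%. The sums over Tdg-ps2 and its copies were higher in CD1 with no overlap in 2 tissues, and their ratio ran from 1.36 to 4.12, while that of Tdg alone ran from 0.357 to 0.945.

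For the next 3 CD1-higher copies the source overlapped between strains in every tissue, as did the nearest counted copies of Eif3j2 and Tmem181c-ps. Gm10320, a copy of Sec61b (a subunit of the channel through which proteins enter the endoplasmic reticulum), took 11.3 to 17.6% of its pair in CD1 and 0.318 to 2.88% in C57. The ratio of Sec61b alone was 0.824 to 1.15. Gm2423, a copy of the adaptor gene Ywhaq, took 12.7 to 23.9% in CD1 and 0.808 to 5.49% in C57, with a Ywhaq ratio of 0.888 to 1.01 outside pancreas and 1.84 there. Gm5801, a copy of the ubiquitin-conjugating enzyme gene Ube2j2, took 2.38 to 14.4% in CD1 and at most 1.18% in C57, with a Ube2j2 ratio of 0.876 to 1.13 outside pancreas and 1.98 there.

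Eif3j2 and Gm3650 are neighbours on chromosome 18, with 3661 bases between their listed starts. Their sources, Eif3j1 (a subunit of a translation initiation factor) and Spg11 (a protein of lysosome upkeep), are neighbours on chromosome 2, with 24940 bases between theirs. Eif3j2 held 11.2 to 35.7 CPM in the 30 CD1 libraries and 1.25 to 7.45 in the 30 C57 libraries, and its share of the pair was 18.5 to 49.2% and 2.26 to 17%. Eif3j1 overlapped between strains in every tissue. Gm3650 held 1.05 to 4.97 CPM in CD1 and 0 to 0.375 in C57. In pancreas all 6 C57 libraries held 3 counts or fewer of it, so Gm3650 was at least 23.3-fold higher in CD1 there, with each C57 library set to 3 counts; such a floor covers counting error only. The only other members within 1 Mb of each other were Gm10320 and Rps18-ps4 on chromosome 13, with 738247 bases between their starts.

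Eno1b, a near-identical copy of the glycolytic enolase gene Eno1, was at 10.9 to 239 CPM in CD1 and 2.04 to 14.6 in C57. It took 25.2 to 34.3% of the pair's counts in each CD1 library and 1.51 to 6.30% in each C57 library. In liver Eno1 had a mean of 230 CPM in CD1 and 640 in C57, and the sum was 329 ± 91.7 against 652 ± 78.9 (n = 6 each) with no overlap. In pancreas the sum was 4.35-fold higher in CD1 over all libraries, and Eno1b alone was 23.4-fold higher with all libraries and 5.05-fold without females 2 and 3.

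**Figure D2:**
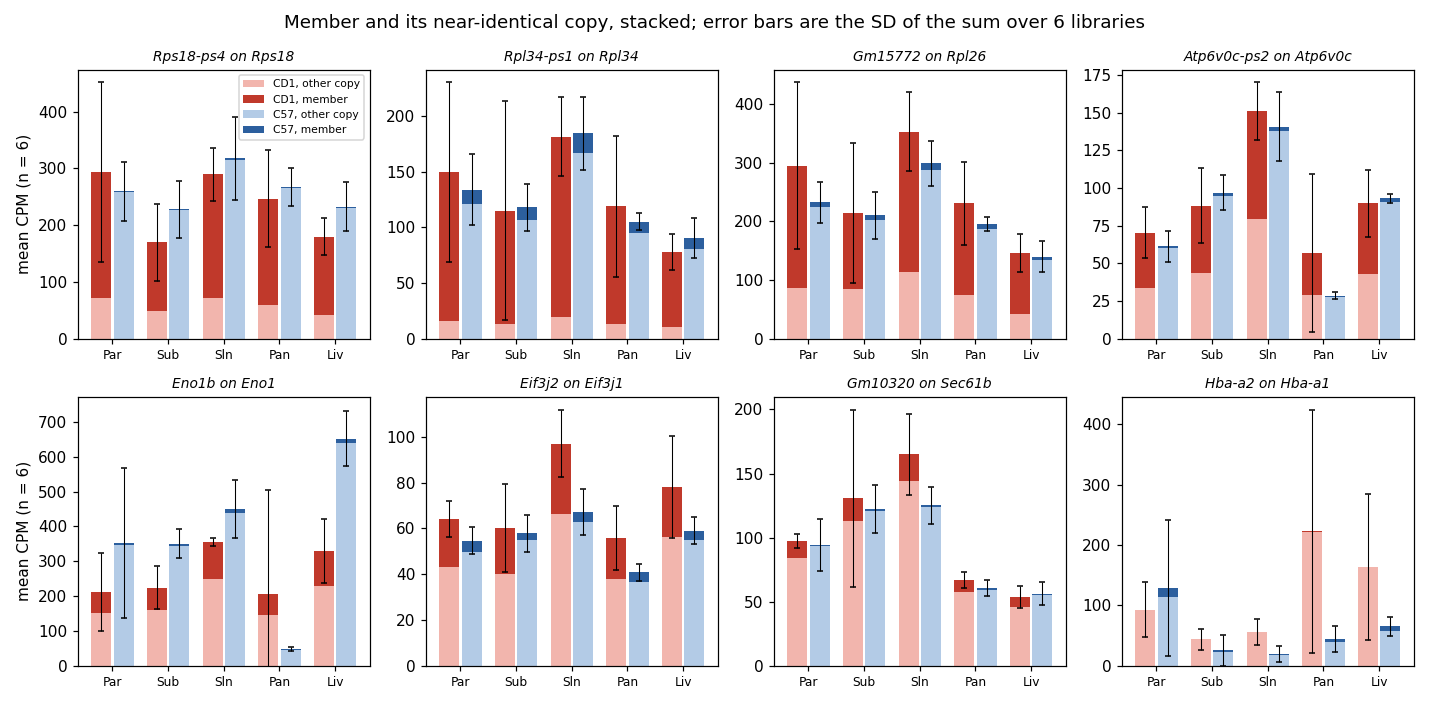
Mean CPM of 8 members (dark) stacked on their near-identical copy (light) in CD1 (red) and C57 (blue), by tissue (Par parotid, Sub submandibular, Sln sublingual, Pan pancreas, Liv liver), with the SD of the sum over 6 libraries as error bars. For Rps18-ps4, Rpl34-ps1 and Gm15772 the stacks are of like height and the dark part fills most of the CD1 bars; for Hba-a2 the dark part appears in C57.

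The other 3 ribosomal protein genes had no counted copy that made up the difference. Rpl29 (chr9:106306631-106307012) held 4.84 to 18.6 CPM in CD1 and 103 to 291 in C57, a ratio of 16.2 to 20.7 over the tissues. The sum over Rpl29 and its 6 counted near-identical copies remained separated in all 5 tissues, with CD1 at 0.149 to 0.201 of C57. Most of that sum's remainder in CD1 was Uimc1, a DNA repair gene that matches Rpl29 on the opposite strand, with means of 14.4 to 32.4 CPM in CD1 and 9.13 to 29.9 in C57. Rpl21 (chr5:146769955-146769981) held 4.44 to 16.3 CPM in CD1 and 42.7 to 149 in C57. With its 8 counted copies, of which BC004004 was by far the most counted, the sum in CD1 was 0.353 to 0.515 of that in C57. Rps2 (chr17:24939037-24939106) held 28.6 to 455 CPM in CD1 and 341 to 1308 in C57, and its 3 counted copies left the ratio of sums at 0.134 to 0.174. GENCODE listed 30 near-identical copies of Rpl29, 61 of Rpl21 and 19 of Rps2, most without a row of counts here.

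H2af-ps2 (chr13:51354120-51357102), a pseudogene of the histone H2A family, had ratios from 94.9 in submandibular gland to 326 in liver, the highest value of any member in any tissue; in parotid and pancreas that of Gm51522 was higher (253 against 231 and 291 against 97.5). It held 2.64 to 118 CPM in CD1 and 0 to 0.964 in C57. Its nearest counted copy, H2ac18, was higher in CD1 with no overlap in 4 tissues, by 1.60 to 4.01-fold over the 5. The sum over H2af-ps2 and 3 counted copies was 4.73 to 10.6 times higher in CD1, with no overlap in 4 tissues. Histone H2A transcripts of the cell cycle mostly lack a poly(A) tail, so poly(A)-selected libraries hold only part of them.

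Hba-a2 (chr11:32246492-32246618) is 1 of 2 adult alpha globin genes, and globin RNA in these tissues comes from blood. In liver it held 0.188 to 1.20 CPM in CD1 (median 0.410) and 5.29 to 13.5 in C57 (median 8.20). Hba-a1, its near-identical partner, overlapped between strains in every tissue, with means of 163 CPM in CD1 and 56.8 in C57 liver. Hba-a2 took 0.0907 to 1.07% of the pair in CD1 and 6.6 to 17.7% in C57. The sum over 5 red cell markers, Hba-a1 and Hba-a2 among them, overlapped between strains in every tissue. It was 273 to 709 CPM in CD1 and 104 to 293 in C57 in liver, and 68.3 to 297 and 49.2 to 623 in parotid. No red cell marker but Hba-a2 was separated between the strains, except 1 more in sublingual gland. Over all genes, between 1.99% (parotid) and 12.6% (sublingual gland) were separated in a tissue. In bulk tissue, fewer cells of a type and less RNA per cell cannot be told apart.

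Of the 13 members with a gene name, Eif3j2, Eno1b and Hba-a2 are described above; the other 10 had no near-identical copy with counts, and Srp9 had 1 without a row. Of those 10, 6 were higher in CD1.

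Ifi202b (chr1:173790135-173790389) belongs to a family of interferon-inducible nucleic acid sensors that is known to vary among inbred strains. It held 2.04 to 6.89 CPM in parotid of CD1 (median 4.79) and 0 to 0.414 in C57 (median 0.0841). In liver the values were 0.704 to 2.36 CPM and 0 to 0.120. Its smallest ratio was 15, in pancreas, or 6.51 without the libraries that stand apart. Lymphoid markers in pancreas summed to as much as 1549 CPM in CD1 and to at most 6.26 in C57. In parotid the 6 lymphoid markers summed to 9.01 to 1827 CPM in CD1 (median 468) and 5.94 to 703 in C57 (median 36), and the 4 myeloid markers to 58.7 to 1784 (median 479) and 70.6 to 580 (median 170). None of these 10 genes was separated between the strains in any tissue. Over all genes only 1.99% were separated in parotid, 3.12% in pancreas and at most 12.6% in any tissue, so overlap of 10 genes is the usual state. The part of immune cells in the parotid and pancreas values was not tested. The lymphoid medians in CD1 and C57 were 13.7 and 15.9 CPM in submandibular gland, 16.2 and 22.7 in sublingual gland, and 14.2 and 11.9 in liver. The myeloid medians were 109 and 111, 156 and 212, and 49.5 and 90.1 in that order of tissues. Ifi202b was 20.3-fold, 22.5-fold and 23.1-fold higher in CD1 there, and the part of immune cells in these values was not tested either. None of 28 other interferon-induced genes at the level of the rule was a member, where only 35 of all 11534 genes were. The median log2 ratio of CD1 over C57 of these 28 was -0.05, against 0.18 over the 11534 genes.

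Glrx (chr13:75988004-75988294) encodes glutaredoxin, which removes glutathione from oxidised proteins. In sublingual gland it held 25.7 to 30.7 CPM in CD1 (median 28.9) and 5.42 to 8.48 in C57 (median 6.36). In liver it held 49.4 to 86.0 CPM in CD1 (median 66.1) and 26.6 to 39.2 in C57 (median 32.0). The groups stood far apart in sublingual gland and close together in liver, where the ratio was 2.03, the smallest of any CD1-higher member. None of 14 other genes of mitochondrial redox and glyoxalase function was a member, where only 35 of all 11534 genes were. The median log2 ratio of these 14 was 0.04.

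Ciapin1 (chr8:95546446-95549835) encodes a protein of cytosolic iron-sulphur cluster assembly. It held 29.5 to 56.6 CPM in CD1 parotid (median 34.8) and 11 to 25.1 in C57 (median 15.2), and 40.3 to 71.4 against 19.9 to 31.2 in liver. Its ratio was 2.14 to 4.65 with CPM and at least 1.93 with TMM. Spopl (chr2:23382942-23401472), an adaptor that brings substrates to a cullin ubiquitin ligase, held 40.8 to 50.1 CPM in CD1 sublingual gland (median 46.3) and 14.2 to 22.8 in C57 (median 18.9). Its smallest ratio was 2.08, in submandibular gland; in pancreas it was 4.35, and 1.82 without females 2 and 3 of CD1.

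Hddc3 (chr7:79992864-79992997), a nucleotide hydrolase, held 10.2 to 14 CPM in CD1 liver (median 10.9) and 1.13 to 1.65 in C57 (median 1.40). In sublingual gland it held 17.7 to 23.6 CPM and 7.55 to 10.4. Its exons overlap Man2a2 on the opposite strand by 427 bases, and Man2a2 had liver means of 53.5 CPM in CD1 and 27.0 in C57. Iqcg (chr16:32834640-32837433), a calmodulin-binding protein of cilia and flagella, held 0.330 to 14.7 CPM in CD1 and 0 to 1.46 in C57. Its exons share 2965 bases with Lrch3 on the opposite strand, and Lrch3 overlapped between strains in parotid, with 6.20 to 33.5 CPM in CD1 and 5.06 to 18.6 in C57. Whether the counting used strand is not given in the sources used here, so reads of such partners cannot be told apart.

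Srp9 (chr1:181952302-181952540), a subunit of the particle that brings ribosomes to the endoplasmic reticulum, was higher in C57. In pancreas it held 19.7 to 31.7 CPM in CD1 (median 23.0) and 59.3 to 82.2 in C57 (median 75.8). In sublingual gland it held 52.6 to 61.4 CPM and 93.0 to 113, where the ratio was 1.82, the smallest of all 35 members. Isoc2b (chr7:4847958-4848364), of the isochorismatase family of hydrolases, held 1.78 to 5.57 CPM in CD1 liver (median 4.42) and 16.8 to 22.0 in C57 (median 19.6).

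Rab6b (chr9:102988866-102989425), a small GTPase of transport at the Golgi apparatus, was higher in C57. In submandibular gland it held 0.201 to 1.18 CPM in CD1 (median 0.724) and 19.6 to 28.5 in C57 (median 24.6), a 34.0-fold difference of means. In liver it was low in both strains, at 0.0538 to 0.425 CPM and 0.482 to 1.88. BC049987 (chr9:44581865-44582570), a long non-coding RNA, held 3.15 to 12.9 CPM in CD1 submandibular gland (median 5.60) and 29.0 to 47.7 in C57 (median 33.7). Another non-coding RNA, 2610507I01Rik (chr11:59088619-59091128), held 0.234 to 3.75 CPM over the CD1 libraries and 3.98 to 27.4 over those of C57; its ratio was 6.99 in pancreas, or 15.7 without the libraries that stand apart, and 16.5 in liver. For BC049987 in sublingual gland, C57 male 2 held 16.8 CPM against 1.81 to 4.42 in the other 5 C57 libraries; that library also held the high Egf, and its part in the result was not tested.

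**Figure D3:**
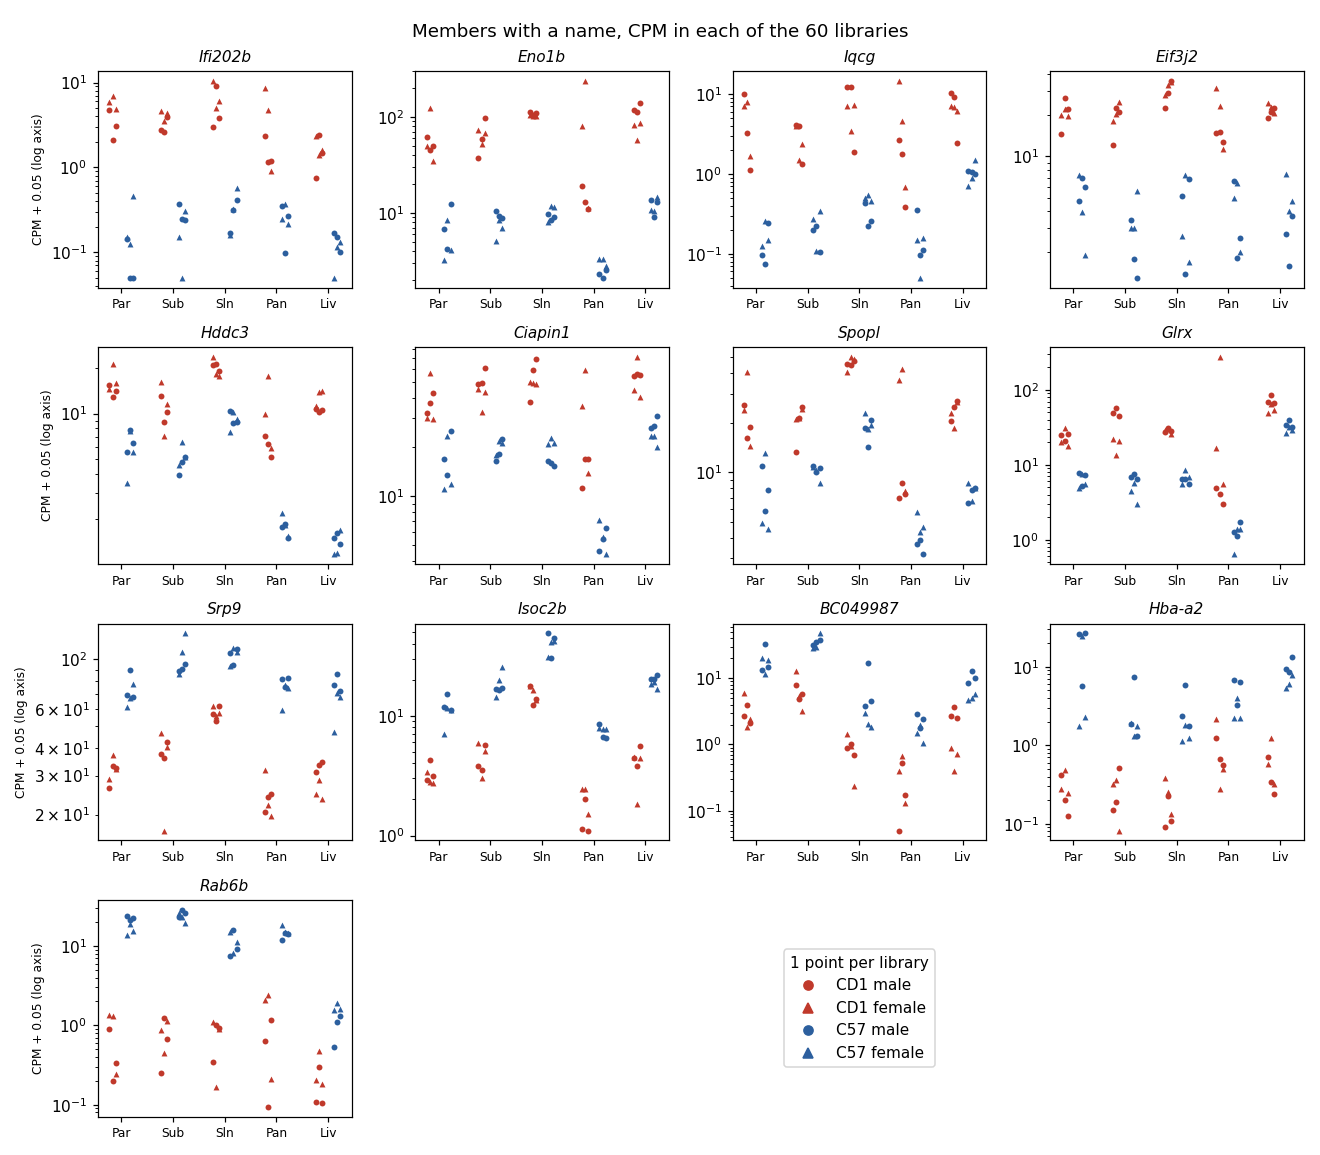
CPM (plus 0.05, log axis) of the 13 members with a gene name in each of the 60 libraries, by tissue (Par, Sub, Sln, Pan, Liv as above), with CD1 in red, C57 in blue, males as circles and females as triangles. The strains do not overlap in any panel or tissue, as the rule requires; Glrx and Eno1b show 1 high CD1 female in pancreas and Rab6b is low in liver of both strains.

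Among genes known to vary in copy number or to carry loss alleles in laboratory mice, 4 of the 23 at the level of the rule were members: Hba-a2, Eno1b, Rab6b and Ifi202b. That list was drawn up with earlier results of these data known, so the count is not independent evidence; its median log2 ratio was 0.08. None of 16 genes of RNA splicing and the exon junction complex was a member, with a median log2 ratio of 0.30. Only 35 of all 11534 genes were members, so a list of this size would seldom hold one.

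Whether the strain difference itself had the same size in every organ was tested with edgeR's quasi-likelihood F test across all 60 libraries. The rule asked for 1 direction in every tissue, so the choice of members leans toward even differences. The share of members called is therefore not on equal terms with that of all genes. The strain difference varied over tissues for 6 of the 35 members, where 10.1% of 22062 genes tested did so: Hddc3 (adjusted p = 8.58e-05), Gm51522 (0.00384), Glrx (0.00558), Tmem181c-ps (0.0119), Hba-a2 (0.0325) and Gm53464 (0.0491). With a block for the animal, the edgeR adjusted p was 0.0700 for Hba-a2 and 0.0553 for Gm53464, and these 2 calls ended, while Iqcg was called, giving 5. Without the libraries that stand apart the same 6 were called, and DESeq2 added Ifi202b and Rab6b. Leaving out 1 animal gave 2 calls without C57 female 2, 3 without CD1 male 1 or CD1 male 3, and 10 without CD1 female 1. Of 12 fits that each left out 1 animal, the call of Hba-a2 was lost in 8 and that of Gm53464 in 10. Tmem181c-ps lost it without CD1 male 1, CD1 male 3, C57 male 2 or C57 female 2 (adjusted p 0.0531 to 0.0622), and Gm51522 without C57 female 2 (0.0732). The Hddc3 and Glrx calls held in all 18 alternatives.

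Hddc3 was 8.49-fold higher in CD1 in liver and 2.21 to 2.59-fold in the 3 salivary glands; in pancreas it was 4.95-fold, or 3.48-fold without the libraries that stand apart. Its C57 mean was 1.38 CPM in liver and 9.10 in sublingual gland, where the CD1 means were 11.7 and 20.1. Glrx was 6.15-fold higher in submandibular gland and 2.03-fold in liver. Its pancreas ratio of 42.7 rested on CD1 female 2, which held 275 CPM against 2.97 to 16.7 in the other 5 CD1 libraries, and it was 3.59 without females 2 and 3. Gm51522, a predicted gene on chromosome 12, was 10.1-fold higher in submandibular gland, 67.8-fold in liver, 169-fold in sublingual gland and 253-fold in parotid. Its pancreas ratio was 291, or 148 without those 2 libraries.

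Tmem181c-ps, a pseudogene of a membrane protein gene on chromosome 17, was 28.1-fold and 28.2-fold higher in submandibular and sublingual gland and 7.04-fold in liver; in pancreas the ratio was 73.7, or 13.1 without females 2 and 3. Its sum with the counted copies Tmem181a and Tmem181b-ps overlapped between strains in every tissue, with a ratio of 1.21 to 2.47. Hba-a2 was 59.6-fold higher in C57 in parotid and 4.82-fold in pancreas. Its partner Hba-a1 also differed between these tissues, with a ratio of CD1 over C57 of 0.812 in parotid and 5.55 in pancreas. The share of Hba-a2 in the pair had tissue medians of 9.4 to 13.2% in C57 and 0.245 to 0.445% in CD1. The part of blood content in this call was not tested. Gm53464, a predicted gene on chromosome 8, was 22.4-fold higher in CD1 liver and 5.57-fold in submandibular gland; its pancreas ratio was 21.4, or 4.75 without those libraries.

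**Figure D4:**
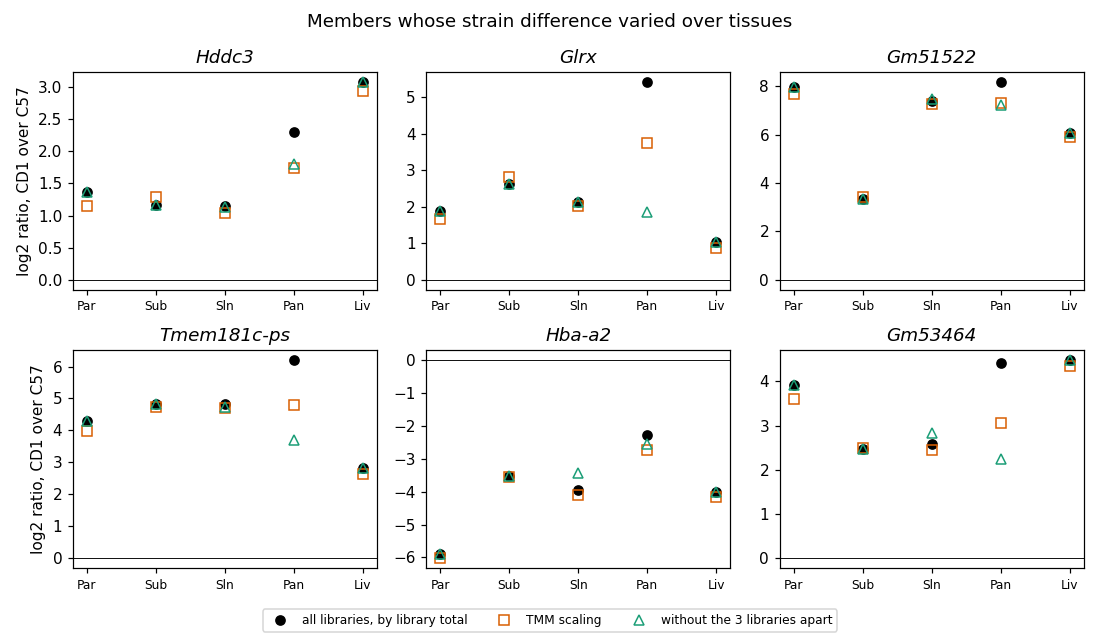
Log2 ratio of strain means (CD1 over C57) in each tissue for the 6 members whose strain difference varied over tissues, by library total (filled circles), with TMM scaling (squares) and without the 3 libraries that stand apart (triangles). Outside pancreas and, for Hba-a2 and Gm53464, sublingual gland the 3 versions nearly coincide; in pancreas Glrx moves from 42.7-fold to 3.59-fold without those libraries.

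The level of a member, averaged over the strains, varied over tissues for 30 of the 35 in the same edgeR fit, where 90.4% of 22062 genes tested did so. The 5 not called were Gm46174, Tdg-ps2, Gm3650, 4930481A15Rik and H2af-ps2. The members with the smallest p were Gm53464 (edgeR adjusted p = 2.94e-23), whose CD1 mean was 76.6 CPM in liver and 1.62 in submandibular gland, Glrx (2.76e-16) and BC049987 (6.57e-15).

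In the outbred CD1 stock, some members also varied among animals in their level taken over the organs of an animal, though every such call ended without some animal. Genes that vary much within a strain are less likely to meet the rule. For tests within a strain, the share of members called is therefore not on equal terms with that of all genes. Variation among CD1 animals of a sex, tested by an edgeR F test over the 5 libraries of each animal, was called for 7 of 35 members, where 2.38% of 22062 genes were called. They were Rps2 (adjusted p = 1.26e-12), 4930481A15Rik (4.83e-07), H2af-ps2 (1.02e-04), Iqcg (5.15e-04), Gm15772 (0.0168), Tmem181c-ps (0.0208) and Gm46174 (0.0222). Among C57 animals of a sex 0 of 35 members were called with edgeR, where 0.0952% of genes were; 4 members had an unadjusted p under 0.05, and DESeq2 called 0. The 2 strains were tested separately, and the difference between them was not tested. Leaving out 1 animal left 3 to 7 calls, and leaving out the 12 pancreas libraries left 4, without Gm15772, Gm46174 and Tmem181c-ps. Adjusted p was 0.151 for H2af-ps2 without CD1 male 1 and 0.258 for Iqcg without CD1 male 3. It was 0.0613 to 0.0669 for Gm15772 without CD1 male 2, CD1 male 3 or CD1 female 1, and 0.435 and 0.302 for Tmem181c-ps without CD1 female 1 and CD1 female 2. For Gm46174 it was 0.0540 to 0.155 without CD1 male 1, CD1 male 3, CD1 female 1 or C57 male 3.

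Rps2 was high in CD1 female 1 in every organ. That animal held 281 CPM in parotid, 309 in submandibular gland, 455 in sublingual gland, 265 in pancreas and 409 in liver. The other 5 CD1 animals held 28.6 to 108 CPM, and C57 animals 341 to 1308. Without CD1 female 1 the edgeR adjusted p of Rps2 was 0.590, so this call rested on that animal.

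4930481A15Rik (chr19:5456843-5457111), a long non-coding RNA higher in C57, was highest among CD1 animals in CD1 male 2 in all 5 tissues. That animal held 1.12, 1.81, 1.66, 0.439 and 0.835 CPM in parotid, submandibular gland, sublingual gland, pancreas and liver, and the other CD1 animals held 0.0223 to 0.835. Without CD1 male 2 the adjusted p in edgeR was 0.134. The same animal had the highest H2af-ps2 in 4 of 5 tissues, with 96.0, 54.9, 118, 37.2 and 73.1 CPM in that order of tissues. CD1 male 1 held 12.0, 2.64, 17.2, 4.98 and 11.9 CPM and CD1 female 1 held 14.6, 12.3, 15, 3.67 and 13.7. Iqcg was lowest in CD1 male 3 in every tissue, at 1.08, 1.29, 1.84, 0.330 and 2.37 CPM, where CD1 male 1 held 9.89, 4.02, 12.3, 2.62 and 10.2.

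The share of Gm15772 in its pair with Rpl26 fell into 2 ranges among CD1 animals and was nearly constant over the 5 organs of an animal. It was 45.3 to 49.2% in CD1 male 1, 46.6 to 50.4% in male 3 and 45.3 to 48.5% in female 3. It was 84.8 to 89.5% in CD1 male 2, 87.5 to 89.7% in female 1 and 86.2 to 93.7% in female 2. All 6 C57 animals lay between 3.11 and 5.51%. These ranges were noticed in the data and are given as values with no test.

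Tmem181c-ps was highest in CD1 female 2 in all 5 tissues, at 21.6, 67.3, 117, 62.8 and 5.48 CPM, and next in CD1 female 3 at 18.4, 30.9, 85.0, 21.7 and 1.79. The 2 pancreas libraries that stand apart come from these animals; without the 3 libraries apart the Tmem181c-ps call ended. Gm46174, a predicted gene on chromosome 1, averaged 5.44 CPM over the tissues in CD1 male 1 and 2.53 in CD1 male 3.

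**Figure D5:**
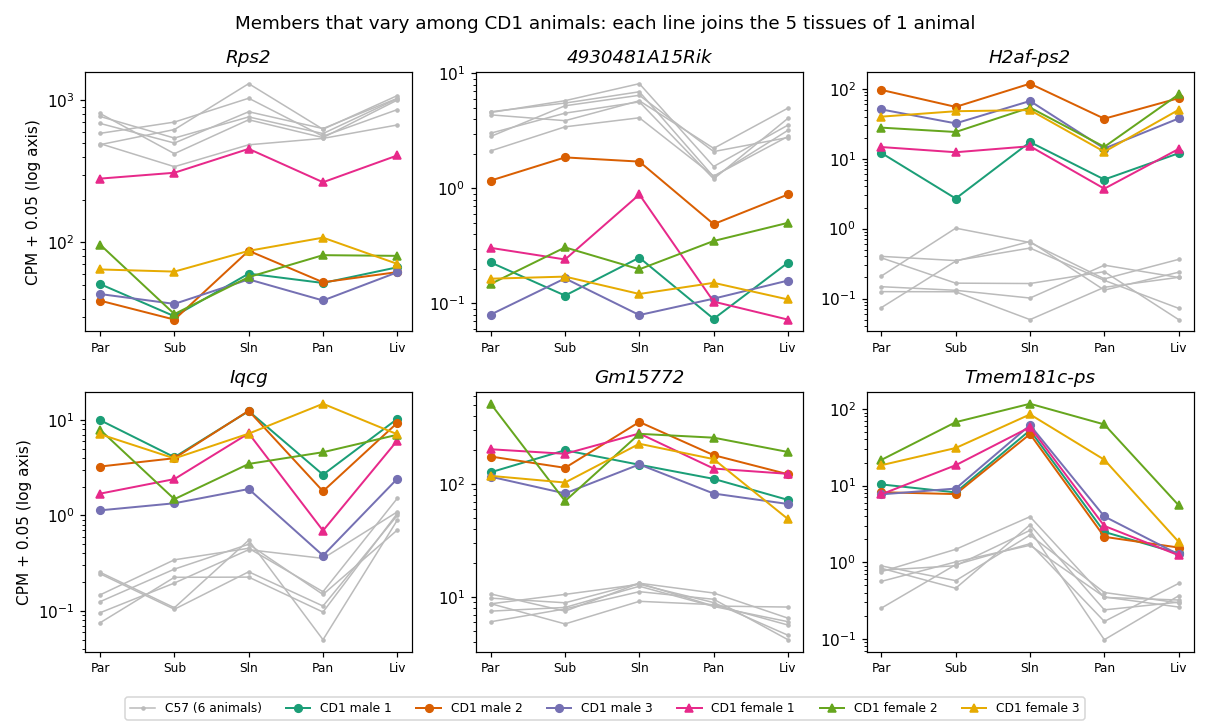
CPM (plus 0.05, log axis) of 6 members across the 5 tissues (Par, Sub, Sln, Pan, Liv as above), with 1 coloured line per CD1 animal (circles male, triangles female) and the 6 C57 animals in grey. The line of CD1 female 1 runs near the C57 animals for Rps2, CD1 male 2 lies above the other CD1 animals for 4930481A15Rik, and CD1 male 3 lies lowest of them for Iqcg.

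Sex differences among the members were few. The p-values for sex and for the interaction measure the spread between animals, with 1 library per animal in a tissue. The tissue tests above fitted 20 group means with no animal term, except with the block, so libraries of 1 animal counted as separate. The tests among animals rest on the spread between libraries that remained after the animal terms. Within each tissue the difference between 6 males and 6 females, averaged over strains, was tested with edgeR's quasi-likelihood test. In submandibular gland, the most sex-dependent of these organs with 17.2% of 17678 genes called, 2 of 35 members were called. Glrx was higher in males: CD1 males held 45.5, 49.8 and 57.3 CPM and CD1 females 13.6, 21 and 22, while C57 males held 6.47, 6.92 and 7.51 and C57 females 2.99, 4.41 and 5.73. Males lay above females in both strains, by 1.12 ± 0.20 on the log2 scale (estimate ± SE, edgeR adjusted p = 0.00191). Tmem181c-ps was higher in females, with a male minus female difference of -1.24 ± 0.31 (edgeR adjusted p = 0.0157). CD1 females held 18.4, 30.9 and 67.3 CPM of it and CD1 males 7.69, 8.10 and 9.09. C57 females held 0.523 to 1.42 and C57 males 0.406 to 0.876, which overlapped. The 67.3 and 30.9 CPM were those of CD1 females 2 and 3, the highest CD1 animals for this gene in every tissue. The call held with any 1 animal left out, and leaving out both of these females was not tested.

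In liver, where 2.64% of 16696 genes were called, 1 of 35 members was called, BC049987. CD1 males held 2.42, 2.68 and 3.66 CPM and CD1 females 0.346, 0.670 and 0.836; C57 males held 8.51 to 13 and C57 females 4.71, 4.99 and 5.77. The sexes did not overlap within either strain, and the difference was 1.63 ± 0.21 on the log2 scale (edgeR adjusted p = 7.94e-04). DESeq2, and edgeR with no filter on low counts, each called 3 members there, BC049987, Gm53464 and Gm8615, and a block for the replicate number gave BC049987, Glrx and Gm53464. A second member was also called without CD1 male 1 (Gm8615), CD1 female 2 (Ciapin1), C57 male 2 or C57 female 1 (Gm53464 in both).

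In parotid, sublingual gland and pancreas 0 of 35 members were called, where 0.0319%, 0.0691% and 0.0307% of genes were called with edgeR. There 2, 1 and 4 members had an unadjusted p under 0.05, and DESeq2 called 0 in each. Without CD1 female 1, 4 members were called for sex in pancreas (Eno1b, Gm10320, Srp9 and Tmem181c-ps) and 4 for the interaction (Gm10320, Gm15772, Rps18-ps4 and Srp9). The sex difference differed between the strains for 0 of 35 members in any tissue with edgeR, where 0% of genes were called in parotid and pancreas, 0.0226% in submandibular gland, 0.0106% in sublingual gland and 0.0479% in liver. Unadjusted p under 0.05 was found for 2 members in parotid, 5 in submandibular gland, 2 in sublingual gland, 2 in pancreas and 6 in liver, and DESeq2 called 0. With 3 animals per group, a p that misses the threshold does not show that the sexes were alike.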

How the data were processed

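The authors deposited raw counts per gene for each library, in the layout of featureCounts per the file headers; the submitters' processing notes name Trim Galore, HISAT2, featureCounts and the GRCm39 (mm39) build, without versions. Counting of multiply matching reads and of strand is not given in the sources used here. Coordinates bound 1 listed exon of a gene. CPM was computed from the library total. The members and lists were chosen with earlier results of these data known, so the strain contrast of the members is given without a test. Genes named with full values followed a rule on the size of the ratio, the level, the smallest p and the neighbourhood. Sex, tissue and animal effects were tested on the deposited counts of all genes with edgeR 4.0.16 (TMM, filterByExpr, quasi-likelihood, Benjamini-Hochberg, threshold 0.05) in R 4.3.3, tested on simulated data, with DESeq2 1.42.0 as an alternative. Near-identical copies were sought with blastn 2.17.0 against GENCODE M21 transcripts. Biotypes came from a RefSeq table of GRCm38.p6. Other alternatives were RLE size factors, no filter on low counts, other CPM minimums, replicate blocks, and leaving out each animal, the libraries that stand apart or the pancreas libraries. Library totals of 29871176 to 66586067 counts make 1 CPM at least 29.9 counts. Of the counts from 1 to 20, 269114 were even and 160278 odd, and how read pairs were counted is not given. The number of RNA fragments behind a count is therefore uncertain. The floor of 3 counts covers counting error only. Libraries of 1 animal share that animal by the labels: residuals of its tissues correlated with a median r of 0.0567 over 120 pairs, 32 of them above 0.1.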

Additional observations from a re-analysis of the deposited data

Results flagged for a closer look

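Dixon's 95% critical value was applied to CPM in 350 sets of 6 libraries (35 members, 5 tissues, 2 strains). In 52 of the sets (14.9%), 1 library lay farther from the rest than that value allows. It is passed in about 1 in 20 sets that are independent and normally distributed. The 350 sets share the same 60 libraries and hold CPM without a log, so the 2 shares are not on equal terms. The share over all genes was not computed, so the count does not describe a trait of the members. Of the 52, 21 came from CD1 female 2. In parotid that animal was high for Eno1b (124 CPM), Gm15772 (513), Gm2423 (25.1), Hddc3 (21.1), Rpl29 (18.6), Rpl34 (32.1), Rpl34-ps1 (278), Rps18 (151) and Rps18-ps4 (454). In pancreas it was high for Atp6v0c-ps2 (78.6 CPM), Eno1b (239), Glrx (275), Gm8615 (96.1), Hddc3 (17.8), Tdg-ps2 (47.1) and Tmem181c-ps (62.8); the same library held 55.4 CPM of Cpa1. In liver it was high for 2610507I01Rik (3.75 CPM), Rpl29 (9.33) and Tmem181c-ps (5.48) and low for Atp6v0c-ps2 (18.9), and in submandibular gland it was low for Srp9 (16.9).

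CD1 female 1 was high for Rps2 in parotid (281 CPM), submandibular gland (309), sublingual gland (455), pancreas (265) and liver (409). CD1 female 3 was high for Gm51522 (279 CPM) and Iqcg (14.7) in pancreas and for Rpl29 (9.86) in submandibular gland. In submandibular gland CD1 male 1 was high for Rpl34-ps1 (295 CPM) and Rps18 (97.9) and low for Spopl (13.3). CD1 male 2 was high for 4930481A15Rik in parotid (1.12 CPM) and submandibular gland (1.81) and for H2af-ps2 in pancreas (37.2). CD1 male 3 was high for Tdg-ps2 in submandibular gland (24.0 CPM).

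Among C57 animals, male 1 was high for Gm51522 in submandibular gland (1.66 CPM) and liver (1.86), H2af-ps2 in submandibular gland (0.964), Iqcg in pancreas (0.305), Rps18-ps4 in liver (3.71) and Tdg-ps2 in parotid (0.940). C57 male 2 was high for BC049987 (16.8 CPM) and Hba-a2 (5.84) in sublingual gland and for Hba-a2 in submandibular gland (7.36); C57 male 3 was high for Gm3650 in parotid (0.220). C57 female 1 was high for Atp6v0c-ps2 in submandibular gland (4.43 CPM) and Ifi202b in parotid (0.414) and low for Spopl in submandibular gland (8.55). C57 female 2 was high for Gm10320 in pancreas (1.69 CPM), and C57 female 3 was high for Tdg-ps2 in liver (1.31) and low for Srp9 in pancreas (59.3).

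The strain difference differed between tissues, by the edgeR F test, for Hddc3 (adjusted p = 8.58e-05), Gm51522 (0.00384), Glrx (0.00558), Tmem181c-ps (0.0119), Hba-a2 (0.0325) and Gm53464 (0.0491). The values and the libraries on which these rest are given with the tissue comparison.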

How the results depend on the processing

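Among recomputed counts, 231 stayed within 1.5 times the reported value and 21 moved. Among the adjusted p-values of single members called, 231 stayed past the threshold and 44 did not, and none of the sex differences changed sign. The cause was not tested. TMM scaling turned the balance of the module from 23 members higher in CD1 and 12 in C57 to 20 and 29. Members with a sex difference in submandibular gland numbered 4 with no filter on low counts and 2 to 4 when 1 animal was left out. In liver there were 3 with no filter, 3 with the replicate block (replicate number), 3 with DESeq2, and 1 to 2 without 1 animal. In pancreas, 0 to 4 members were called without 1 animal for sex and 0 to 4 for the interaction; without the libraries that stand apart, 1 was called for each (Rps2). The strain difference varied over tissues for 2 to 10 members without 1 animal, and for 5 with the replicate block (animal). CD1 animals differed for 3 to 7 members without 1 animal and for 4 without the 12 pancreas libraries. The module held 28 members at a minimum of 2 CPM, 37 at 0.5 CPM, 40 with no minimum and 35 to 39 without 1 animal. All 35 were kept in the last case, which the rule nearly fixes. Leaving an animal out cannot undo a complete separation, and only the minimum level could remove a member. Same-numbered animals of different groups shared only a number: the median correlation was 0.00367 between strains and 0.00101 between sexes. Levels near 1 CPM, and copies that differ at 1 or 2 bases, limit what the counts resolve.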
